A study of Mus musculus with 8 samples.

Results

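The 10 genes described here encode the negative feedback arm of canonical Wnt signalling and the DNA-binding factors through which beta-catenin acts. They are the scaffold genes Axin2 and Axin1, the Dishevelled-binding gene Nkd1, the receptor ligase genes Rnf43 and Znrf3, the transcription factor gene Sp5 and the TCF/LEF genes Tcf7, Lef1, Tcf7l1 and Tcf7l2. They were chosen by symbol, with earlier results of these data known. All 10 were present among the 21757 genes of the mouse count table and, as human symbols, among the 60237 genes of the human tables. In the mouse experiment, 2 libraries of Ctnnb1-ex3 small-intestinal organoids, grown with Noggin and EGF alone, were compared with 2 libraries of WT organoids, which also received Wnt3a and R-spondin1, so genotype and medium differed together. By common usage Ctnnb1-ex3 denotes a beta-catenin allele without exon 3. Such an allele makes a protein without the phosphorylation sites that mark it for destruction, and a count per gene cannot show the missing exon. In the knockdown experiment, 2 libraries with a short hairpin against Prmt1 (sh-Prmt1) were compared with 2 libraries with a scrambled hairpin (sh-scramble). The labels call these libraries mouse intestinal organoids, but every gene identifier in their files is human, so the cells behind them are not established and they are reported with human symbols. No label says which promoter drives the hairpins or how many hairpins were used.

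In unstimulated cells a complex built on AXIN and APC marks beta-catenin for degradation. When Wnt ligands bind Frizzled receptors, or when exon 3 is lost, beta-catenin accumulates and joins TCF/LEF proteins on DNA, where it turns repressed genes into active ones. Several of the genes switched on in this way restrain the pathway again, and in the crypts of the small intestine this loop limits how far the stem cell zone extends.

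Polyadenylated RNA had been copied into libraries by a custom form of Smart-seq2, which in its usual form keeps no strand. The mouse libraries held between 2951887 and 6015933 counts and the human libraries between 39608249 and 53193449 estimated counts. Levels are library-size-scaled counts (CPM) after TMM normalization, which takes the average gene as constant, and a fold therefore measures a gene against that average. Genes count as risen or fallen where edgeR's quasi-likelihood test, with Benjamini-Hochberg adjustment over the whole table, gave less than 0.05, and edgeR adjusted p below always means this test. Whether the 2 libraries of a group came from separate cultures or animals is not stated, so the p-values cover only the spread between libraries, which may be technical. In the check of the targeted gene, PRMT1 had 2.99 and 3.35 CPM in the sh-Prmt1 libraries, against 37.0 and 34.2 CPM in the sh-scramble libraries, 11.2-fold lower with sh-Prmt1. In the organoids Ctnnb1 had 218 and 289 CPM in Ctnnb1-ex3, against 340 and 423 CPM in WT, a log2 fold change of -0.59 that did not pass the test (edgeR adjusted p = 0.0504). Prmt1 itself had 51.2 and 32.4 CPM in Ctnnb1-ex3, against 10.1 and 11.4 CPM in WT (log2 fold change 1.97; edgeR adjusted p = 0.00287). The general epithelial gene Epcam was abundant in both experiments, with 1984 and 1629 counts of Epcam in Ctnnb1-ex3 and 1901 and 1562 in WT, and with 74696 and 100626 estimated counts of EPCAM in sh-Prmt1 and 48643 and 56399 in sh-scramble. Some epithelial markers were scarce in the human libraries, where the goblet cell gene MUC2 had 35 and 102 estimated counts in sh-Prmt1, against 75 and 17 in sh-scramble, and where the enteroendocrine gene CHGA had at most 4 and the enterocyte gene ALPI at most 24 in any library, whereas the enterocyte gene FABP1 had 230631 and 311128 in sh-Prmt1, against 265998 and 330978 in sh-scramble.

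Because 8 of the 10 genes moved in the same direction in the organoids, the stretches upstream of their starts are shown for those with the largest changes and for those that held a TCF/LEF word. RefSeq (GRCm38.p6) windows from 250 bases before to 50 bases after each annotated start were listed for 8 of the 10 genes, in 14 windows; Axin1 and Znrf3 had none. The word CTTTGAA, which matches the core recognised by TCF/LEF proteins, was searched together with the word CTTTGAT, with the word CTTTGTA and with the word CTTTGTT, on both strands; none of them is the reverse complement of another. A match stood in 3 of the 14 windows (21.4%), against 16.9% of the 32851 windows of the whole table, so the share was close to that of promoters in general. The GC content of the 14 windows ran between 42% and 76.3%, and the 7 windows with at least 60% GC, a limit set after the windows were seen, held 0 matches, against 5.9% of all windows that rich in GC. In Sp5 the words CTTTGTT, on the minus strand, and CTTTGAT, on the plus strand, began at -222 and -104 relative to the start. An internal start of Lef1 had CTTTGTA on the minus strand at -147, and an internal start of Tcf7l2 had CTTTGTT on the plus strand at -14. The 250 bases before the start follow, on the plus strand and 5′ to 3′, with matches in capitals. They lie at chr2:70474673-70474922 (Sp5), chr11:108920099-108920348 (Axin2), chr8:88527383-88527632 (Nkd1), chr3:131156044-131156293 (Lef1) and chr19:55895071-55895320 (Tcf7l2).
Sp5: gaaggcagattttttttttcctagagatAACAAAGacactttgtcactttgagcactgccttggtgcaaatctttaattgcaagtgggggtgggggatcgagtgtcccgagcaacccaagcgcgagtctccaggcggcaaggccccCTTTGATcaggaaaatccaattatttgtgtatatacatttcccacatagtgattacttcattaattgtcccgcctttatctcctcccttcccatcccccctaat
Axin2: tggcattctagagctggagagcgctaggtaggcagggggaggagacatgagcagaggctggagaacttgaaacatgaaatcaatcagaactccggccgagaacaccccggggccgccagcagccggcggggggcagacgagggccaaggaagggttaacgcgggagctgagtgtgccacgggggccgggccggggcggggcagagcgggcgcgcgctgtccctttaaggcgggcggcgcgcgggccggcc
Nkd1: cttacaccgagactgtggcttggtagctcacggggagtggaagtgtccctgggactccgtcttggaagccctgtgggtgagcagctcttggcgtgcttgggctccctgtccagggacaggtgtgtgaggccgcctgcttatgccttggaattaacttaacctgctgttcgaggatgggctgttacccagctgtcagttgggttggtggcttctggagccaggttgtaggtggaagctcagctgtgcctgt
Lef1 internal start: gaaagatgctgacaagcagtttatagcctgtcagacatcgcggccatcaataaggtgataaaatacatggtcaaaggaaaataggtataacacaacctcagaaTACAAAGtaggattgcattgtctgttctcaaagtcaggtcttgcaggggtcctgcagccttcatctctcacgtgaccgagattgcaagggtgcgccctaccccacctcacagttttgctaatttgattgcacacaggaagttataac
Tcf7l2 internal start: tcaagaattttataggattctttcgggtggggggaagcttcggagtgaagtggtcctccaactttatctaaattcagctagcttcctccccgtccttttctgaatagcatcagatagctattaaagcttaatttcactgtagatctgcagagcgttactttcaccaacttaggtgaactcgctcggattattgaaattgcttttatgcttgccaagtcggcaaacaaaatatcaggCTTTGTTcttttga
The Sp5 stretch held 2 matches within 250 bases, while the Axin2 and Nkd1 stretches, which belong to the genes with the largest folds among the members, held none of these words; the Nkd1 start of RefSeq lies inside the longer GENCODE gene. A match is a description of the sequence and not evidence of a bound site, and sites outside these windows were not searched.

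The comparison of Ctnnb1-ex3 with WT organoids asks which transcripts differ between organoids whose beta-catenin escapes degradation and WT organoids given Wnt3a and R-spondin1. Effects of genotype and of medium cannot be told apart in it. All 10 genes had enough counts to be tested; in Ctnnb1-ex3 organoids 8 rose, 1 fell and 1 did not pass the test. Over all 12976 genes tested, 40.8% were called, 20.3% as risen and 20.5% as fallen, and the median log2 fold change was 0.02, against 1.94 over the members. Of all calls 49.8% were rises, or 68% with upper-quartile factors. The CPM of the 2 groups did not overlap for 10 of the 10 members, and did not overlap for 73.6% of all genes tested. In bulk RNA a higher share of cells that express a gene and more RNA of that gene per cell cannot be told apart.

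**Figure D1:**
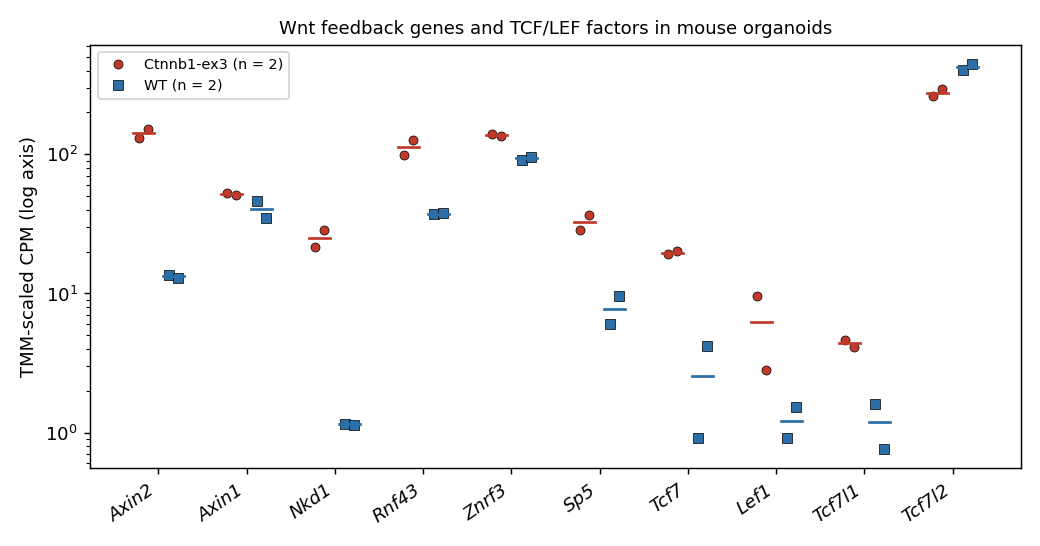
TMM-scaled CPM (log axis) of the 10 genes in the 2 Ctnnb1-ex3 libraries (circles) and the 2 WT libraries (squares), with bars at the group means. The Ctnnb1-ex3 circles lie above the WT squares for 9 genes, Axin1 among them although it did not pass the test, and below them for Tcf7l2; the distance is widest for Nkd1, at 25 against 1.15 CPM on average.

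Axin2, the inducible scaffold of the destruction complex (chr11:108920349-108950783, plus strand, in mm10 by GENCODE vM21), had 131 and 152 CPM in Ctnnb1-ex3, against 13.6 and 12.9 CPM in WT. Both Ctnnb1-ex3 libraries were far above both WT libraries, and the rise was 10.6-fold (log2 fold change 3.40 ± 0.17, SE, n = 2 each; edgeR adjusted p = 3.82e-05). Axin2 ranked 14 by p-value among all genes tested. Its paralog Axin1, the scaffold whose expression is usually held to be constitutive (chr17:26138688-26195811, plus strand), had 52.5 and 50.9 CPM in Ctnnb1-ex3, against 46.5 and 35 CPM in WT. The groups of Axin1 did not overlap, but the lower Ctnnb1-ex3 library was only a little above the higher WT library, and the log2 fold change of 0.33 did not pass the test (95% interval -0.14 to 0.80; edgeR adjusted p = 0.227). The ratio of Axin2 to Axin1 counts, which does not depend on library size, was 2.50 and 2.98 in Ctnnb1-ex3, against 0.292 and 0.370 in WT. In these counts, which are not corrected for length, Axin2 was thus the larger of the paralogs in each Ctnnb1-ex3 library and the smaller in each WT library. The same crossing held per kilobase of merged exon, where Axin2 had 25.7 ± 2.65 and Axin1 13.5 ± 0.294 CPM per kb in Ctnnb1-ex3, against 2.41 ± 0.0835 and 10.6 ± 2.13 CPM per kb in WT (SD, n = 2).

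Nkd1, which binds Dishevelled and dampens Wnt signalling (chr8:88521354-88594884, plus strand), had 21.5 and 28.5 CPM in Ctnnb1-ex3, against 1.15 and 1.14 CPM in WT. These levels came from 143 and 111 counts in Ctnnb1-ex3 and 5 and 3 counts in WT, so the WT level lay at the depth limit, where 3 counts corresponded to 0.691 and 1.14 CPM. The rise was 21.2-fold, the largest among the members (log2 fold change 4.41 ± 0.49, SE, n = 2 each; edgeR adjusted p = 0.000519), with an exact binomial 95% interval of 10.5 to 49.1 from the summed counts. With cyclic loess scaling the log2 fold change was 3.26, still past the test. The counting interval, like the floor, covers counting error only.

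Rnf43 and Znrf3 encode transmembrane ubiquitin ligases that clear Frizzled receptors from the cell surface, an activity that R-spondins block through LGR receptors. Rnf43 (chr11:87662722-87735539, plus strand) had 99.2 and 126 CPM in Ctnnb1-ex3, against 37.3 and 37.7 CPM in WT. It rose 3.0-fold (log2 fold change 1.58 ± 0.17, SE; edgeR adjusted p = 0.000451). Znrf3 (chr11:5276324-5444847, minus strand) had 139 and 136 CPM in Ctnnb1-ex3, against 91.6 and 95.9 CPM in WT. Its rise was 1.47-fold (log2 fold change 0.56 ± 0.13, SE; edgeR adjusted p = 0.011), and this call was lost when either WT library was left out, at 0.49 without replicate 1 (adjusted p = 0.187) and 0.57 without replicate 2 (adjusted p = 0.127). The ratio of Rnf43 to Znrf3 counts was 0.711 and 0.928 in Ctnnb1-ex3, against 0.407 and 0.393 in WT, so the pair did not move in proportion.

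Sp5, a zinc finger transcription factor of the SP/KLF family that is induced by Wnt and dampens other Wnt targets (chr2:70474923-70477729, plus strand), had 28.4 and 36.7 CPM in Ctnnb1-ex3, against 5.99 and 9.51 CPM in WT. All Ctnnb1-ex3 values exceeded the WT values, and the rise was 4.28-fold (log2 fold change 2.10 ± 0.37, SE; edgeR adjusted p = 0.00347). Relative to Axin2, Sp5 counts stood at 0.216 and 0.242 in Ctnnb1-ex3, against 0.441 and 0.735 in WT, so Sp5 gained less than Axin2.

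The TCF/LEF genes encode related HMG-box proteins that bind the same short DNA element. Among them Tcf7l2 is known as the main partner of beta-catenin in intestinal epithelium, Tcf7 and Lef1 are also prominent in T lymphocytes, and Tcf7l1 acts mostly as a repressor. Tcf7 (chr11:52252371-52283014, minus strand) had 19.2 and 20.0 CPM in Ctnnb1-ex3, against 0.921 and 4.18 CPM in WT. The Ctnnb1-ex3 libraries were close together while the WT libraries differed by several-fold on 4 and 11 counts. Tcf7 rose 8.37-fold (log2 fold change 3.06 ± 0.63, SE; edgeR adjusted p = 0.00676), or 2.19 on the log2 scale without WT replicate 1, 4.36 without WT replicate 2 and 2.32 with cyclic loess scaling, and it passed in each case. Lef1 (chr3:131110471-131224356, plus strand) had 9.62 and 2.83 CPM in Ctnnb1-ex3, from 64 and 11 counts, against 0.921 and 1.52 CPM in WT, from 4 counts in each. Ctnnb1-ex3 replicate 1 was well above the other 3 libraries, and replicate 2 was closer to the WT libraries than to it. The log2 fold change of Lef1 was 2.42 ± 0.77 (SE; edgeR adjusted p = 0.0376). It was 1.24 without Ctnnb1-ex3 replicate 1 and did not pass there (adjusted p = 0.193), it was 3.02 without Ctnnb1-ex3 replicate 2, and the call was also lost without either WT library (2.00, adjusted p = 0.309, and 2.74, adjusted p = 0.163). With cyclic loess scaling it was 0.88 (adjusted p = 0.322), and with DESeq2 2.42 (adjusted p = 0.0773).

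Tcf7l1 (chr6:72626378-72789254, minus strand) had 4.66 and 4.11 CPM in Ctnnb1-ex3, against 1.61 and 0.761 CPM in WT. The groups did not overlap, but the WT libraries held only 7 and 2 counts and the log2 fold change of 1.79 ± 0.60 was close to the threshold (SE; edgeR adjusted p = 0.0452). The call was lost without Ctnnb1-ex3 replicate 1 (1.66, adjusted p = 0.0525), and with either WT library left out, at 2.46 without replicate 1 (adjusted p = 0.32) and 1.42 without replicate 2 (adjusted p = 0.506). With cyclic loess scaling the value was 0.65 (adjusted p = 0.366), and with DESeq2 1.82 (adjusted p = 0.231). An antisense gene, Gm15401, shares 179 exon bases (4.56%) with Tcf7l1 and had 56 and 40 counts in Ctnnb1-ex3, against 38 and 28 counts in WT. Whether the custom libraries or the counting kept strand is not stated; without strand, reads from the shared bases cannot be assigned to either gene. Antisense genes that are not in the count table also overlap exons of Lef1 (Gm43352, 1208 bases, 13.8%) and Axin2 (Gm11670, 209 bases, 3.8%).

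Tcf7l2 (chr19:55741820-55933654, plus strand) was the member that fell, with 263 and 293 CPM in Ctnnb1-ex3, against 406 and 447 CPM in WT. Both Ctnnb1-ex3 libraries were below both WT libraries, and the level in Ctnnb1-ex3 was 1.53-fold lower (log2 fold change -0.62 ± 0.17, SE; edgeR adjusted p = 0.0228). Of all genes tested 19.5% had a log2 fold change at or below this value, so a fall of this size was not particular to Tcf7l2. The abundant epithelial genes Epcam (-0.53) and Krt8 (-0.59) had similar values without passing, while Vil1 (-0.75) and Krt19 (-0.66) fell and passed. Cdh1 (-0.27) and Krt18 (0.00) had values nearer to no change and did not pass. These epithelial genes were picked after their values were seen. The call of Tcf7l2 did not hold with upper-quartile factors (-0.38, adjusted p = 0.0792) or with cyclic loess scaling (-0.10, adjusted p = 0.554). It was also lost without Ctnnb1-ex3 replicate 1, WT replicate 1 or WT replicate 2 (-0.55, -0.71 and -0.56).

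Taken per kilobase of merged GENCODE exon, Tcf7l2 made up 75.7% and 78.8% of the summed CPM of the 4 TCF/LEF genes in Ctnnb1-ex3, against 98.2% and 96.3% in WT. The share of Tcf7 was 18.5% and 18.0% in Ctnnb1-ex3, against 0.744% and 3.02% in WT. Lef1 held 2.77% and 0.758% in Ctnnb1-ex3, against 0.222% and 0.328% in WT, and Tcf7l1 held 3.0% and 2.47%, against 0.871% and 0.367%. The sum over the 4 genes was 39.6 and 42.4 CPM per kb in Ctnnb1-ex3, against 47.2 and 52.9 CPM per kb in WT. Tcf7l2 thus remained the most abundant of the family in every library. The counts are per gene, so forms of these factors with and without the beta-catenin binding end were not separated.

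**Figure D2:**
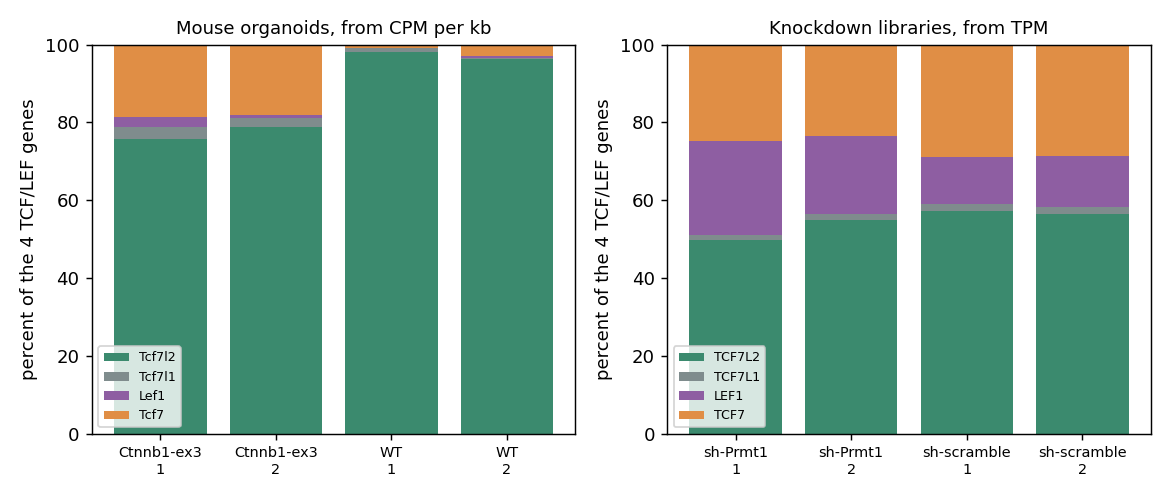
Share (percent) of each TCF/LEF gene in the sum of the 4, per library, from CPM per kb of merged exon in the organoids (left; Ctnnb1-ex3, then WT) and from TPM in the knockdown libraries (right; sh-Prmt1, then sh-scramble). The Tcf7 share is 18.5% and 18.0% in Ctnnb1-ex3 against 0.744% and 3.02% in WT, and the LEF1 share is 24.3% and 20.1% in sh-Prmt1 against 12.2% and 13.2% in sh-scramble.

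Across all 10 genes on the per-length scale, the Ctnnb1-ex3 order was led by Tcf7l2 (31.7 ± 2.43 CPM per kb) and Axin2 (25.7 ± 2.65), followed by Znrf3 (17.4 ± 0.323), Rnf43 (17.2 ± 2.90), Sp5 (15.5 ± 2.81) and Axin1 (13.5 ± 0.294). Tcf7 (7.48 ± 0.215), Nkd1 (5.49 ± 1.09), Tcf7l1 (1.12 ± 0.0989) and Lef1 (0.708 ± 0.547) came last (SD, n = 2). Neighbours between Znrf3 and Axin1 overlapped in this order, as did Tcf7l1 and Lef1. In WT the order was Tcf7l2 (48.6 ± 3.24 CPM per kb), Znrf3 (11.9 ± 0.379), Axin1, Rnf43 (5.72 ± 0.0388), Sp5 (3.69 ± 1.19), Axin2, Tcf7 (0.972 ± 0.879), Tcf7l1 (0.302 ± 0.153), Nkd1 (0.251 ± 0.00155) and Lef1 (0.139 ± 0.0484). There Znrf3 overlapped with Axin1, and Tcf7l1 overlapped with both Tcf7 and Nkd1. The annotation that the authors counted on is not given in the sources used here, so these lengths may differ from theirs.

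Since Tcf7 and Lef1 are also T cell genes, lymphocyte markers were set beside them. The 17 markers summed to 18.3 and 103 CPM in Ctnnb1-ex3, against 14.7 and 15.2 CPM in WT, so that Ctnnb1-ex3 replicate 2 stood apart. In that library Gzma had 110 counts and Ptprc 25, while in Ctnnb1-ex3 replicate 1 each stood at 1, the lowest value in the table. Both genes were singled out after their values were seen. Not every marker was higher in replicate 2. The T cell gene Cd3d had 18 and 9 counts in Ctnnb1-ex3, against 8 and 10 counts in WT (log2 fold change -0.10). In Ctnnb1-ex3 replicates 1 and 2, Tcf7 had 19.2 and 20.0 CPM and Lef1 had 9.62 and 2.83 CPM. Without replicate 2 the log2 fold change of Tcf7 was 3.08. Leaving out 1 library does not remove lymphocyte RNA from the other, and its part in Tcf7 and Lef1 was not tested. Of 3 lymphocyte markers that passed the filter, 1 rose, namely the kinase gene Lck, which was singled out after its values were seen, with 58 and 49 counts in Ctnnb1-ex3 against 12 and 2 counts in WT. Of the 10 stromal and endothelial markers, whose sum was 36.5 and 31.1 CPM in Ctnnb1-ex3 and 26.5 and 11.4 CPM in WT, 1 was tested and 0 passed with edgeR; the tested gene was Vim, with 197 and 96 counts in Ctnnb1-ex3, against 91 and 11 counts in WT (log2 fold change 1.05; edgeR adjusted p = 0.177), and it made up most of the sum in every library but WT replicate 2. Pdgfrb had 25 and 6 counts in Ctnnb1-ex3, against 8 and 4 in WT, while Col3a1 and Pdgfra had at most 2 in any library. Of the 6 listed markers of other leukocytes 3 were tested and 0 passed with edgeR. The list summed to 16.8 and 24.7 CPM in Ctnnb1-ex3, against 102 and 16.7 CPM in WT, so WT replicate 1 stood apart there. Most of the sum in WT replicate 1 came from Lyz2 alone, named after its values were seen. It had 33 and 74 counts in Ctnnb1-ex3, against 323 and 3 counts in WT. Of 17 epithelial markers 3 rose and 7 fell. Of the 6 crypt base markers all 6 rose, Axin2 being one of them, and 4 of 6 Paneth cell markers rose. Of 5 markers of proliferating cells 2 rose, Mki67 (0.84) and Top2a (0.59), and 0 fell with edgeR. Ccnb1 (-0.03), Cdk1 (-0.04) and Birc5 (-0.15) did not pass, and the median of the list was -0.03. The sums were 1372 and 1625 CPM in Ctnnb1-ex3, against 1113 and 1181 CPM in WT. The part of these shifts in cell makeup in the values of the 10 genes was not tested.

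The rest of the pathway gives the setting. Of 26 other Wnt-responsive genes, 19 were tested and 15 rose, with a median log2 fold change of 1.84. These included the Wnt-responsive receptor gene Tnfrsf19 (5.61), the zinc finger gene Zfp503 (5.03) and Lgr5 (4.07), which had 225 and 230 CPM in Ctnnb1-ex3, against 12 and 15.6 CPM in WT. Of the 20 genes of the destruction complex and beta-catenin turnover, 18 were tested, of which 3 rose and 1 fell (median -0.05). The casein kinase gene Csnk1e (1.46), the Dishevelled gene Dvl2 (1.29) and the APC-binding gene Amer1 (1.14) rose, and Rnf146, whose product degrades AXIN, fell (-0.66). Of 23 cofactors of TCF/LEF, 22 were tested, 9 rose and 1 fell, with a median of 0.40; the list also holds Tcf3, the symbol of the E2A gene. The beta-catenin coactivator gene Bcl9l (1.99) and the adaptor gene Ldb1 (1.25) rose most, and the corepressor gene Tle4 fell (-0.82). Of 14 receptor genes of the Frizzled, LRP and LGR families, 12 were tested, 5 rose and 1 fell, with a median of 0.78. Fzd9 had 112 and 35 counts in Ctnnb1-ex3 and stood at the table's lowest value, 1, in both WT libraries, while Fzd2 (3.05), Fzd3 (2.15), Lrp5 (2.13) and Fzd7 (1.16) also rose and Fzd5 fell (-1.80). Amer1, Rnf146, Tle4, Fzd3, Lrp5, Fzd7 and Fzd5 were named after their values were seen.

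The genes whose profile over the 4 organoid libraries lay nearest to that of Axin2, by root mean square distance of centred log2 CPM among 11090 candidates, included Crip2 (0.0702) and 1700009P17Rik (0.107). Crip2 had 33.8 and 39.0 CPM in Ctnnb1-ex3, against 3.22 and 2.66 CPM in WT.

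In the authors' deposited table for the organoids, Axin2 had a log2 fold change of 3.40 (adjusted p = 1.09e-41), Nkd1 4.43 (7.32e-18) and Tcf7l2 -0.62 (0.000294). The authors' deposited table gave Tcf7l1 an adjusted p of 0.563, although its log2 fold change of 1.85 was near the 1.79 found here, and Lef1 an adjusted p of 0.000767. Of the 10 members, Tcf7l1 was thus the one whose call differed from the one made here.

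The comparison of sh-Prmt1 with sh-scramble asks how the transcripts respond when PRMT1, an arginine methyltransferase responsible for most asymmetric dimethylarginine, is depleted. Of the 10 genes, all of which passed the filter, 1 rose and 0 fell with edgeR; at an unadjusted p under 0.05, 0 were lower. Over the 18436 genes tested, 41% were called, 20.6% as risen and 20.4% as fallen, and the median log2 fold change was 0.03, against -0.10 over the members. The CPM of the groups did not overlap for 6 of the 10 members, against 71.1% of all genes tested.

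**Figure D3:**
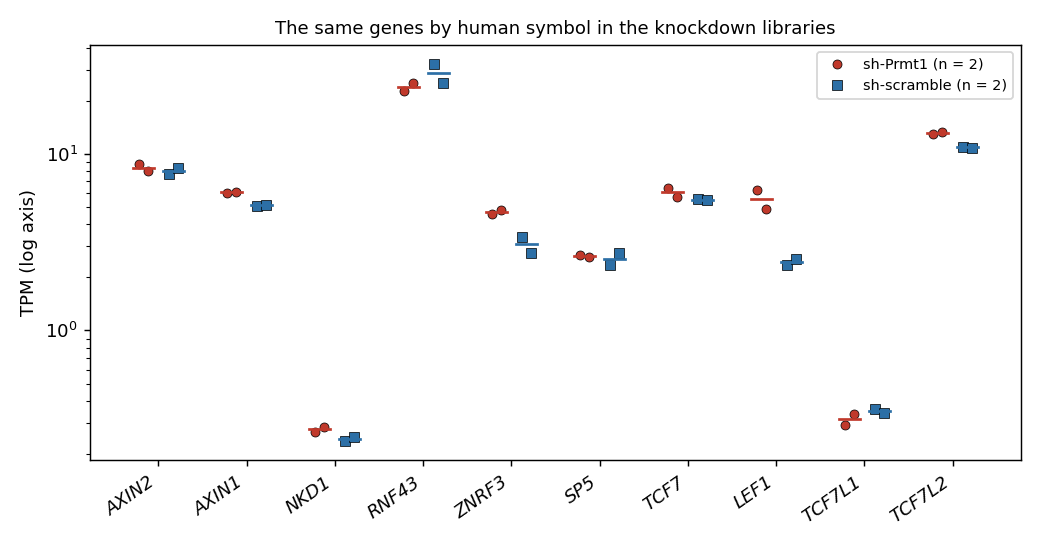
TPM (log axis) of the 10 genes in the 2 sh-Prmt1 libraries (circles) and the 2 sh-scramble libraries (squares), with bars at the group means. The clearest distance is at LEF1, with 6.29 and 4.87 TPM in sh-Prmt1 against 2.34 and 2.54 TPM in sh-scramble, while AXIN2 and SP5 overlap. On this scale, which carries no TMM factors, AXIN1, NKD1, TCF7, TCF7L2 and ZNRF3 also lie higher in sh-Prmt1, and RNF43 and TCF7L1 lie lower. In the edgeR fit TCF7 (-0.10) and ZNRF3 (-0.17) had negative log2 fold changes. Those of AXIN1 (0.02), NKD1 (0.01) and TCF7L2 (0.09) were slightly positive, and none of these genes passed. The share of all genes that separate in TPM was not counted.

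LEF1 was the member that rose. It had 13.9 and 12.2 CPM in sh-Prmt1, against 6.10 and 6.13 CPM in sh-scramble, from 597 and 694 estimated counts in sh-Prmt1 and 226 and 260 in sh-scramble. The sh-scramble libraries were almost equal and both sh-Prmt1 libraries lay well above them. The rise was 2.14-fold (log2 fold change 1.10 ± 0.13, SE, n = 2 each; edgeR adjusted p = 0.00017), and it held without each library in turn, between 0.99 and 1.17. The antisense gene LEF1-AS1 had 9 and 5.02 estimated counts in sh-Prmt1, against 4 and 11 in sh-scramble, so few reads were assigned to it in any library. The authors' deposited table gave LEF1 a log2 fold change of 0.89 (adjusted p = 4.89e-05) but classed it, like the other members, as not significant. The name of that comparison carries a log2 fold change limit larger than this value, whereas the calls made here use no such limit.

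The other TCF/LEF genes did not pass. TCF7 had 19.8 and 19.2 CPM in sh-Prmt1, against 21.6 and 20.4 CPM in sh-scramble (log2 fold change -0.10, 95% interval -0.32 to 0.11; edgeR adjusted p = 0.42). TCF7L2 had 63.4 and 68.1 CPM in sh-Prmt1, against 63.5 and 60.3 CPM in sh-scramble (0.09, -0.10 to 0.28; edgeR adjusted p = 0.45). TCF7L1 was scarce, with 21 and 25 estimated counts in sh-Prmt1, against 26 and 23 in sh-scramble, and its interval was wide (-1.35 to 0.52). In TPM, which Salmon scales by gene length and library, LEF1 made up 24.3% and 20.1% of the 4 factors in sh-Prmt1, against 12.2% and 13.2% in sh-scramble. The ratio of LEF1 to TCF7 was 0.983 and 0.854 in sh-Prmt1, against 0.422 and 0.461 in sh-scramble. TCF7L2 held the largest share in each library, at 49.9% and 55.0% in sh-Prmt1, against 57.1% and 56.4% in sh-scramble.

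The feedback genes did not pass either. AXIN2 had 43.5 and 42.7 CPM in sh-Prmt1, against 45.0 and 47.5 CPM in sh-scramble, a log2 fold change of -0.10 (95% interval -0.29 to 0.08; edgeR adjusted p = 0.361). AXIN1 had 15.9 and 17.2 CPM in sh-Prmt1, against 16.9 and 15.9 CPM in sh-scramble, and NKD1 had 5.79 and 6.55 CPM, against 6.15 and 6.16 CPM. The CPM of both genes overlapped between groups, with log2 fold changes of 0.02 for AXIN1 and 0.01 for NKD1, which turned slightly negative under several settings. In TPM both genes lay higher in sh-Prmt1. AXIN1 had 5.98 and 6.12 TPM there, against 5.09 and 5.15 in sh-scramble, and NKD1 had 0.266 and 0.284, against 0.235 and 0.247. SP5 had 3.18 and 3.29 CPM in sh-Prmt1, against 3.43 and 3.8 CPM in sh-scramble (log2 fold change -0.16, 95% interval -0.56 to 0.24; edgeR adjusted p = 0.514). The intervals of AXIN2 and SP5 exclude changes as large as the 3.40 and 2.10 seen for their mouse counterparts in the organoids, but the experiments differ in species and cells and the difference itself was not tested.

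**Figure D4:**
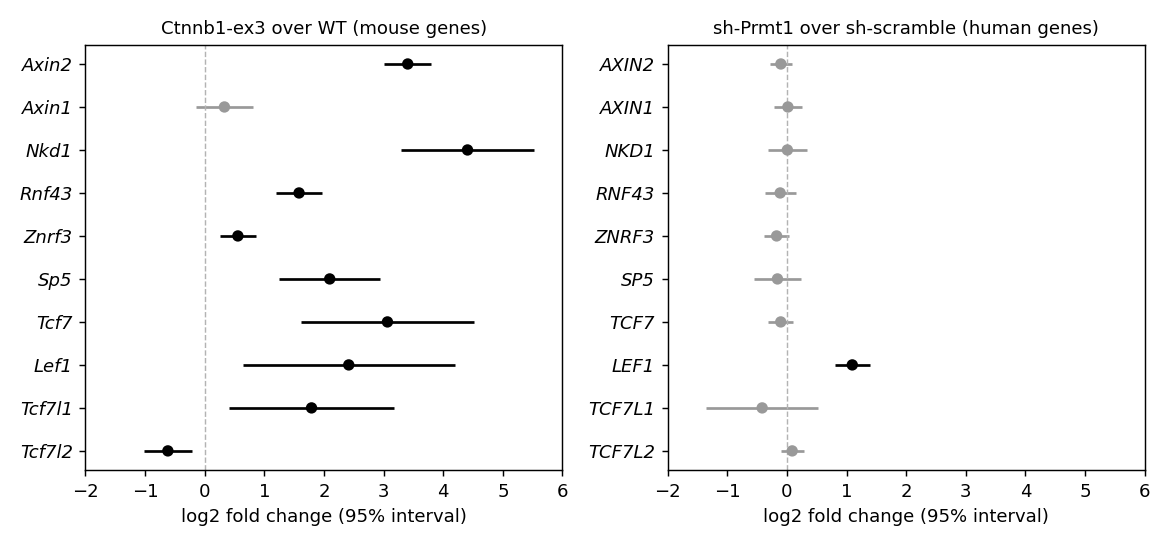
log2 fold changes with 95% intervals from the edgeR fits, for Ctnnb1-ex3 over WT (left) and sh-Prmt1 over sh-scramble (right), with called genes in black and others in grey. On the left 8 genes lie to the right of 0 with calls and Tcf7l2 lies at -0.62; on the right LEF1, at 1.10, is the called gene.

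Like several other members, RNF43 and ZNRF3 differed between scales. RNF43 had 56.4 and 64.1 CPM in sh-Prmt1, against 72.2 and 58.3 CPM in sh-scramble, and the groups overlapped (log2 fold change -0.11; edgeR adjusted p = 0.469). ZNRF3 had 20.9 and 23.2 CPM in sh-Prmt1, against 24.9 and 24.9 CPM in sh-scramble, slightly apart (-0.17; edgeR adjusted p = 0.179). In TPM, however, ZNRF3 had 4.57 and 4.84 in sh-Prmt1, against 3.41 and 2.75 in sh-scramble, so on that scale the sh-Prmt1 libraries were the higher ones. The ratio of RNF43 to ZNRF3 in TPM was 5.01 and 5.19 in sh-Prmt1, against 9.56 and 9.20 in sh-scramble, with no overlap.

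Length accounts for only part of the gap between the scales. AXIN1 had mean effective lengths of 1814 bases in sh-Prmt1 and 1831 in sh-scramble. Its TPM was nevertheless 5.98 and 6.12 in sh-Prmt1, against 5.09 and 5.15 in sh-scramble. CPM, unlike TPM, was divided by TMM factors, which were 1.083 and 1.069 in sh-Prmt1, against 0.934 and 0.925 in sh-scramble. This division lowers the CPM of every gene in sh-Prmt1 relative to sh-scramble, and TPM does not carry it. How much of the gap it makes up was not tested. The effective gene length, which Salmon takes as a mean over a gene's transcripts weighted by their abundance, differed between groups for ZNRF3 and RNF43. For ZNRF3 it was 3153 and 3055 bases in sh-Prmt1, against 4080 and 5285 bases in sh-scramble. For RNF43 it was 1701 and 1626 bases in sh-Prmt1, against 1239 and 1347 bases in sh-scramble. The log2 ratio of mean lengths was -0.59 for ZNRF3 and 0.36 for RNF43, larger in size than for 95.7% and 90.4% of the genes tested, where the median ratio was 0.03. Among the members 7 of 10 had lengths that did not overlap between groups, against 56.5% of the genes tested, so the lack of overlap alone is common. LEF1 had 1529 and 1600 bases in sh-Prmt1, against 1459 and 1415 bases in sh-scramble. With the lengths as an offset in the edgeR fit, ZNRF3 had a log2 fold change of 0.46 (adjusted p = 0.054), RNF43 -0.43 (adjusted p = 0.0826) and LEF1 1.03 (adjusted p = 0.00256). The authors' deposited table gave RNF43 -0.45 (adjusted p = 0.00755) and ZNRF3 0.35 (adjusted p = 0.058), and its own class for both was not significant. Both values are smaller in size than the fold change limit in the name of that comparison. A length is an estimate from the reads of 1 library and does not name the transcripts, which the gene-level files do not hold.

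**Figure D5:**
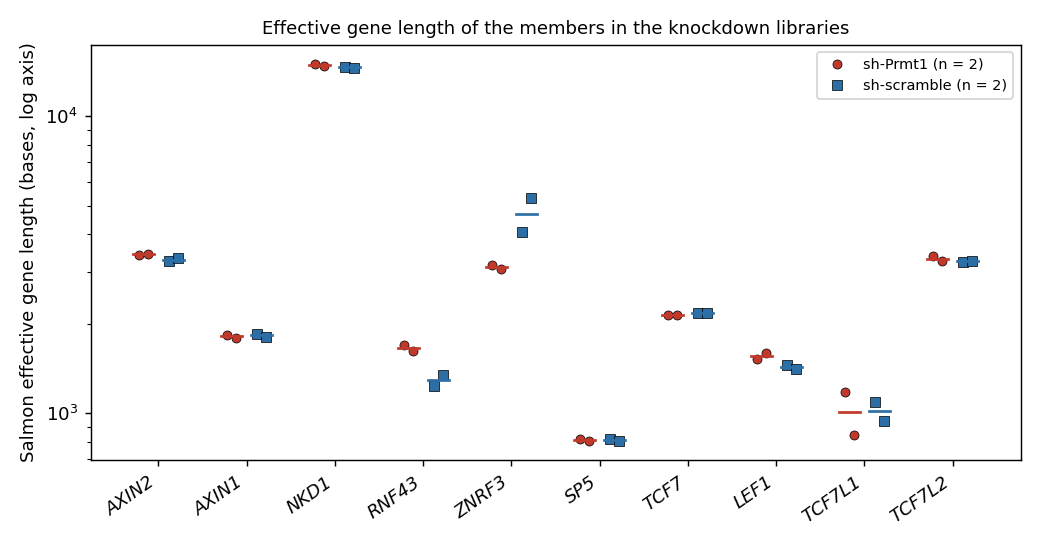
Salmon effective gene length (bases, log axis) of the 10 genes in the 2 sh-Prmt1 libraries (circles) and the 2 sh-scramble libraries (squares), with bars at the group means. ZNRF3 averages 3104 bases in sh-Prmt1 against 4683 in sh-scramble, and RNF43 1663 against 1293, while AXIN1, SP5 and TCF7L1 overlap between groups.

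By TPM the sh-Prmt1 order was RNF43 (24.0 ± 1.60), TCF7L2 (13.1 ± 0.289), AXIN2 (8.36 ± 0.574), AXIN1 (6.05 ± 0.0989), TCF7 (6.05 ± 0.485), LEF1 (5.58 ± 1.0), ZNRF3 (4.71 ± 0.193), SP5 (2.64 ± 0.0414), TCF7L1 (0.315 ± 0.032) and NKD1 (0.275 ± 0.0128). AXIN1, TCF7 and LEF1 overlapped in it. The sh-scramble order was RNF43 (28.9 ± 5.12), TCF7L2 (10.9 ± 0.0961), AXIN2 (8.05 ± 0.445), TCF7 (5.51 ± 0.0258), AXIN1 (5.12 ± 0.0443), ZNRF3 (3.08 ± 0.464), SP5 (2.55 ± 0.298), LEF1 (2.44 ± 0.142), TCF7L1 (0.35 ± 0.0124) and NKD1 (0.241 ± 0.00882). SP5 overlapped with both ZNRF3 and LEF1 there (SD, n = 2). LEF1 thus stood above ZNRF3 and SP5 in sh-Prmt1 and below or among them in sh-scramble.

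Among the other pathway genes in the knockdown libraries, 21 Wnt-responsive genes were tested, of which 4 rose and 3 fell (median log2 fold change 0.17). The Eph receptor gene EPHB3 (-3.27), the cyclin gene CCND1 (-0.79) and LGR5 fell, and those that rose included the ligand gene FGF20 (1.53), the BMP decoy receptor gene BAMBI (1.13) and the homeobox gene CDX1 (0.45). LGR5 had 20.0 and 20.7 CPM in sh-Prmt1, against 29.8 and 35.3 CPM in sh-scramble (-0.68; edgeR adjusted p = 0.000706). Of 19 destruction complex and turnover genes tested, 4 rose, namely DVL1 (0.52), GSK3B (0.51), BTRC (0.41) and CSNK1E (0.29), and the kinase gene CSNK1A1 fell (-0.95), with a median of 0.14. Of 23 cofactors 7 rose and 6 fell, with a median of 0.23; the kinase gene NLK (-1.16) and the TLE family gene TLE6 (-1.10) changed most, and CTNNB1 itself fell. CTNNB1 had 374 and 273 CPM in sh-Prmt1, against 466 and 601 CPM in sh-scramble (-0.72; edgeR adjusted p = 0.00545). Of 12 receptor genes tested FZD5 rose (0.40) and FZD3 fell (-0.66), with a median of 0.03. CCND1, BAMBI, CDX1, GSK3B, BTRC and CSNK1E were named after their values were seen.

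AXIN2's nearest profiles among 8500 candidates were those of MTMR2 (0.00395), NEU3 (0.00487) and CIAO1 (0.00711), none of which passed the test, so this likeness is between genes that hardly varied. Of the markers of proliferating cells 4 of 5 fell and 0 rose with edgeR, in sums of 1672 and 1673 CPM in sh-Prmt1 against 2207 and 2199 CPM in sh-scramble. The 17 lymphocyte markers, of which 5 were tested and 0 passed with edgeR, summed to 195 and 167 CPM in sh-Prmt1, against 161 and 198 CPM in sh-scramble, nearly all of it from ITGAE, and the defining genes CD3E and PTPRC had at most 7 estimated counts in any library. Of 5 crypt base markers tested, AXIN2 among them, 0 rose with edgeR and 3 fell, namely LGR5, SLC12A2 (-0.62) and SMOC2 (-1.88), with a median of -0.62. Of 15 epithelial markers tested 4 rose, which were EPCAM (0.41), KRT19 (0.74), CDX1 and LYZ (1.33), and 2 fell, which were LGR5 and FABP1 (-0.46). Both Paneth cell markers present in the table rose, MMP7 (1.14) and LYZ. Of the other leukocyte markers 1 was tested and rose, the macrophage gene CD68, with 161 and 182 estimated counts in sh-Prmt1, against 43 and 36 in sh-scramble (1.80; edgeR adjusted p = 0.000359), while CSF1R and ITGAM had at most 5 in any library. Of 3 stromal markers tested 0 passed with edgeR, and the list summed to 2.55 and 1.66 CPM in sh-Prmt1, against 1.02 and 1.13 CPM in sh-scramble. These marker genes were named after their values were seen, and the part of such shifts in the LEF1 value was not tested.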

How the data were processed

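For the organoids the authors deposited whole-number counts per mouse gene symbol. Per the submitters' processing notes mm10, Salmon and DESeq2 were used, without roles or versions; the aligner and the annotation behind the table were not given in the sources used here. Its smallest count is 1, which 861 genes show in every library, so an alternative took 1 away. For the knockdown, per the file headers, the authors deposited Salmon estimated counts, TPM and effective lengths per human gene. Symbols came from the authors' deposited comparison (60236 of 60237 identifiers). Estimated counts were rounded, and 209 sex-linked genes were left out. The authors also deposited their own log2 fold changes and adjusted p-values, credited wherever used.

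The 2 experiments were analysed separately in R 4.3.3 using edgeR 4.0.16 (filterByExpr, TMM, glmQLFit, glmQLFTest, two-sided); the script was tested on simulated data. SE is the log2 fold change divided by the square root of F, and intervals use the fit's t distribution. CPM uses TMM-scaled totals of the genes past the filter. Likeness was measured on log2 CPM (prior count 2) over genes averaging at least 3. Exon lengths and coordinates are from GENCODE vM21 (mm10), promoter windows from RefSeq (GRCm38.p6). The 10 members are always named, with Prmt1, Ctnnb1 and Lgr5 and the 2 largest called changes per list. Some genes that these rules would name are not reported here. Alternatives were DESeq2 1.42.0, limma 3.58.1 (voom, or cyclic loess with limma-trend), other scalings, no filter, a replicate block, effective lengths as an offset, and each library left out. Members and lists were chosen with earlier results of these data known.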

Additional observations from a re-analysis of the deposited data

How the results depend on the processing

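In the organoids the number of members that rose was 8, and 6 to 8 under the scaling, filter and test alternatives; it ran between 5 and 8 when each library was left out. The number that fell was 1, and 0 with upper-quartile factors and with cyclic loess; it ran between 0 and 1 when each library was left out. Tcf7l2 was the member concerned. Axin2, Nkd1, Rnf43, Sp5 and Tcf7 passed under each alternative run. The call of Lef1 was also lost with DESeq2 (log2 fold change 2.42, adjusted p = 0.0773) and limma-voom (2.17, 0.0626), at a size near the 2.42 reported, and with cyclic loess at a smaller size (0.88, 0.322). That of Tcf7l1 was lost with DESeq2 (1.82, 0.231), no filter (1.82, 0.169) and 1 taken away from every count (2.10, 0.0526), against 1.79 reported, and with cyclic loess at a smaller size (0.65, 0.366). Cyclic loess also gave smaller values for Nkd1 (3.26, against 4.41) and Tcf7 (2.32, against 3.06), which passed. Of all genes, 5291 were called, between 2634 and 7757 when each library was left out. Upper-quartile factors moved the median log2 fold change of all organoid genes to 0.26 and the number that fell to 1752, against 2654. Without WT replicate 1 the counts were 2960 in all, 1325 higher and 1635 lower, and without WT replicate 2 they were 2634, 1110 and 1524. Without Ctnnb1-ex3 replicate 2 the rises numbered 4008, against 2637. The cause was not tested, beyond the fewer libraries. A lone library in a group is assumed to vary like the pair in the other.

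In the knockdown 1 member rose and 0 fell under each alternative, and 7553 genes were called, between 5788 and 6878 when each library was left out; DESeq2 gave 2506 higher, against 3789, with a median log2 fold change of 0.29 over all genes, and leaving out the filter moved that median to 0.31. Signs turned for uncalled members. AXIN1 and NKD1 were at -0.044 and -0.054 with DESeq2, -0.005 and -0.014 with relative log expression factors, -0.024 and -0.063 with cyclic loess, and -0.016 and -0.025 with no filter. When each library was left out, AXIN1 ran between -0.059 and 0.06, NKD1 between -0.102 and 0.079, and RNF43 between -0.276 and 0. ZNRF3 was at 0.46 with the length offset, which by construction adds the length difference.

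Same-numbered libraries had deviations correlated at 0.0706 in the organoids and -0.0512 in the knockdown, so the numbers are not taken to pair them. With a replicate block 6484 organoid genes and 7078 knockdown genes were called, and the members called numbered 9 and 1, as without it. Depth limits the WT values of Nkd1, Lef1, Tcf7 and Tcf7l1.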
